A study of Mus musculus with 6 samples.

Results

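The MYC-MAX network genes are the 10 mouse genes Myc, Mycn, Mycl, Max, Mxd1, Mxi1, Mxd3, Mxd4, Mnt and Mga. They were chosen by symbol among the 17484 gene rows that the 6 count tables share, and all 10 were present. Mycl is filed there under its older symbol Mycl1, which RefSeq gives as a synonym on the same chromosome. RNA was measured in E14 cells, a mouse embryonic stem cell line of 129/Ola background grown with serum and leukaemia inhibitory factor. Treatment began 24 h after seeding with cycloheximide, which blocks translation elongation, at a dose of 250 µg/mL. The drug was given with 0.007% ethanol and stayed on the cells for either 3 h or 6 h. Control cells received ethanol without the drug for 9 h, at a percentage that the labels do not give. Control and treated cells thus also differed in hours of exposure to ethanol. The labels give 24 h after seeding for every group. If cells were collected when exposure ended, the 3 groups also differed in time in culture. These differences cannot be told apart from that of the drug. Each of the 3 groups held 2 libraries of polyadenylated RNA. Nothing in the labels says that the 2 libraries of a group came from separate cultures, and the p-values then measure only the spread between these libraries. All the cells are of 1 line.

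MYC proteins are short-lived transcription factors that bind DNA as pairs with MAX. The core sequence they bind is the E-box CACGTG. MXD proteins and MNT also pair with MAX, occupy the same E-boxes and recruit the SIN3 corepressor, so they oppose MYC. MGA pairs with MAX as well and belongs to the Polycomb complex PRC1.6, which keeps germ cell genes silent in embryonic stem cells. In these cells MYC and MYCN support growth and self-renewal and can stand in for each other to a large degree. MYC-family messages are known for rapid turnover.

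RefSeq gives a promoter window of 250 bases before and 50 bases after the transcription start (GRCm38.p6) for 9 of the 10 members, all but Myc. The letters CACGTG were searched in every such window; they read the same on both strands. They occur in 2349 of 32851 windows (7.15%) and in the windows of Max, Mxd4 and Mnt among the 9 members with a window. The letters TTTGGCGC and TTTCGCGC, which E2F factors are known to bind, were searched on both strands. They occur in 267 windows (0.813%), and among those 9 members only Mycn has them, at 3 places. Those matches start 183, 179 and 168 bases before the start site, and the first and second share 4 bases. A match describes letters only and shows no binding.

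The 250 bases upstream of 3 members and of Stag3, a germ cell cohesin gene, are printed 5′ to 3′ on the gene's strand. After 6 h of cycloheximide, transcripts of Mycn and Mnt were lower and those of Mga and Stag3 higher. The windows of Mxd1, Mxd3 and Smc1b, whose transcripts also changed at 6 h, hold neither motif and are not printed. Capitals mark E2F letters in Mycn and the E-box in Mnt and Stag3, and the Mga window holds neither motif. The windows are chr12:12941837-12942086 on the minus strand, and chr11:74830674-74830923, chr2:119896978-119897227 and chr5:138280259-138280508 on the plus strand.
Mycn: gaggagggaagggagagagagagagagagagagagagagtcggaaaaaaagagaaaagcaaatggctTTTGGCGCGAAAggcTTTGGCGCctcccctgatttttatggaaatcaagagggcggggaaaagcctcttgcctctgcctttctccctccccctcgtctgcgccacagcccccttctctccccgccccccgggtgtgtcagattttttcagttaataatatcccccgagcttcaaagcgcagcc
Mnt: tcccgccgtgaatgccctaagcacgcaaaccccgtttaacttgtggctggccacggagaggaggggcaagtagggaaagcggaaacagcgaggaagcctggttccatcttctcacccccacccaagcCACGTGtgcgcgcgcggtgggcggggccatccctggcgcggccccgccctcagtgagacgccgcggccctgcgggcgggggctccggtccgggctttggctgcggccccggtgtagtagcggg
Mga: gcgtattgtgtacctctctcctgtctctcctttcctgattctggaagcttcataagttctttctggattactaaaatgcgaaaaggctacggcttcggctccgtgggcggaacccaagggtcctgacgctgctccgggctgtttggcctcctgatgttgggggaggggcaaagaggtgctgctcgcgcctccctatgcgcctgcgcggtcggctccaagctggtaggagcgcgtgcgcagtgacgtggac
Stag3: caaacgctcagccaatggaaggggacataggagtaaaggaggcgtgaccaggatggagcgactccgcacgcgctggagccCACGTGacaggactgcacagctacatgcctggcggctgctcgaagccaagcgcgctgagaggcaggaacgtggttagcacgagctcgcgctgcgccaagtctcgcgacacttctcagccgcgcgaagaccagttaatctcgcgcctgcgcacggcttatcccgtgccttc

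Library totals ranged from 9385447 to 27351077 counts, and the deepest libraries were the 6 h ones. A count of 3, used as the floor of detection, equalled 0.0990 to 0.367 CPM (the unit of level used throughout, counts relative to the TMM-scaled size of their library), which covers counting error only. Counts from the mitochondrial chromosome made up 24.7 to 24.9% of the control libraries, 18.9 to 19.6% at 3 h and 16.6 to 17.4% at 6 h. Of the 12 embryonic stem cell markers, 12 were tested, and their summed level was 7231 to 7396 CPM in control, 8189 to 8425 at 3 h and 5700 to 5882 at 6 h. Sox2, the most abundant of them, had means of 2442, 3904 and 2358 CPM in these groups. By contrast, 8 of the 12 had a negative log2 fold change at 3 h (median -0.15), and 4 with library size alone (median 0.07). At 6 h 5 of the 12 were called, all lower, and 12 of 12 had negative values. At 3 h 2 were called higher and 1 lower. Of all tested genes, 29.0% were called at 6 h, 14.3% lower, and 4.90% at 3 h. The markers with the smallest p at 6 h were Tfcp2l1 (-1.51 ± 0.13), Fgf4 (-1.30 ± 0.12) and Zfp42 (-0.98 ± 0.10). With library size alone 3 of the 12 were called lower and 1 higher at 6 h. Under that scaling 6 values were positive and 6 negative, with a median of 0.002 beside 0.40 for all genes. Pou5f1 lay between 125 and 153 CPM in the 6 libraries, whereas Nanog was low throughout, with group means of 8.01, 6.46 and 4.84 CPM. Summed markers of primitive endoderm were 5.85 to 8.19 CPM in control, 15.6 to 19.4 at 3 h and 12.9 to 15.3 at 6 h. Of its 6 tested genes edgeR called 0 at either time (2 at 3 h and 0 at 6 h had an unadjusted p under 0.05), DESeq2 called 1 at 3 h and limma-voom 1 at 6 h. Mesoderm markers stayed between 5.62 and 12.6 CPM in all libraries with 1 of 4 tested genes called at 6 h (Tbx6, higher). That call was lost without any 1 control or 6 h library. Tbx6 had 6 and 3 counts in the control libraries and passed the filter on low counts only through treated libraries. Fibroblast markers stayed between 2.99 and 10.1 CPM, and 0 of 2 tested genes were called by edgeR, DESeq2 or limma-voom at either time (0 at 3 h and 1 at 6 h had an unadjusted p under 0.05 in edgeR). Neural markers summed to 330 to 340 CPM in control, 282 to 324 at 3 h and 136 to 143 at 6 h. Of 4 tested neural genes 1 was called at 6 h, Tubb3, with means of 264 CPM in control and 71.8 at 6 h. The fall of the sum was mostly that of Tubb3. Sox1 had means of 67.0 and 64.1 CPM in these groups, Pax6 1.42 and 2.93, and Map2 2.36 and 0.787. Trophoblast markers summed to 41.2 to 54.4 CPM in control, 31.2 to 33.3 at 3 h and 21.5 to 22.8 at 6 h. Of their 3 tested genes 1 was called at 6 h (Krt8, lower). No listed marker in the tables was at 0 in every library, but Col1a2, Lum, Neurog2, Cdx2, Mesp1 and Amn were at 0 in at least 1. Col1a2 had counts only in the first 6 h library and Lum only in the second control. The fibroblast markers Col3a1 and Postn and the trophoblast marker Elf5 had no row at all. The part of these markers in the results on MYC-MAX genes was not tested.

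All 10 members passed the filter on low counts. At 3 h, 1 of the 10 was called changed against control (edgeR quasi-likelihood test, Benjamini-Hochberg adjusted p under 0.05 over 12755 genes), and it was Mga, which was higher. In the same comparison 4.90% of all tested genes were called, 3.60% higher and 1.30% lower. At 6 h, 6 of the 10 were called, of which Mxd1 and Mga were higher and Myc, Mycn, Mxd3 and Mnt lower. The share among all tested genes was 29.0%, with 14.8% higher and 14.3% lower. Between 3 h and 6 h, 2 members were called, Myc and Mycn, both lower, against 1.64% of all tested genes, 0.455% higher and 1.18% lower. The median log2 fold change of the members was 0.02 at 3 h, -0.11 at 6 h and -0.25 from 3 h to 6 h, beside medians of 0.02, 0.04 and 0.01 over all tested genes. The 3 h and 6 h comparisons share their control libraries. Bulk counts cannot tell fewer cells that express a gene from less RNA per cell.

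**Figure D1:**
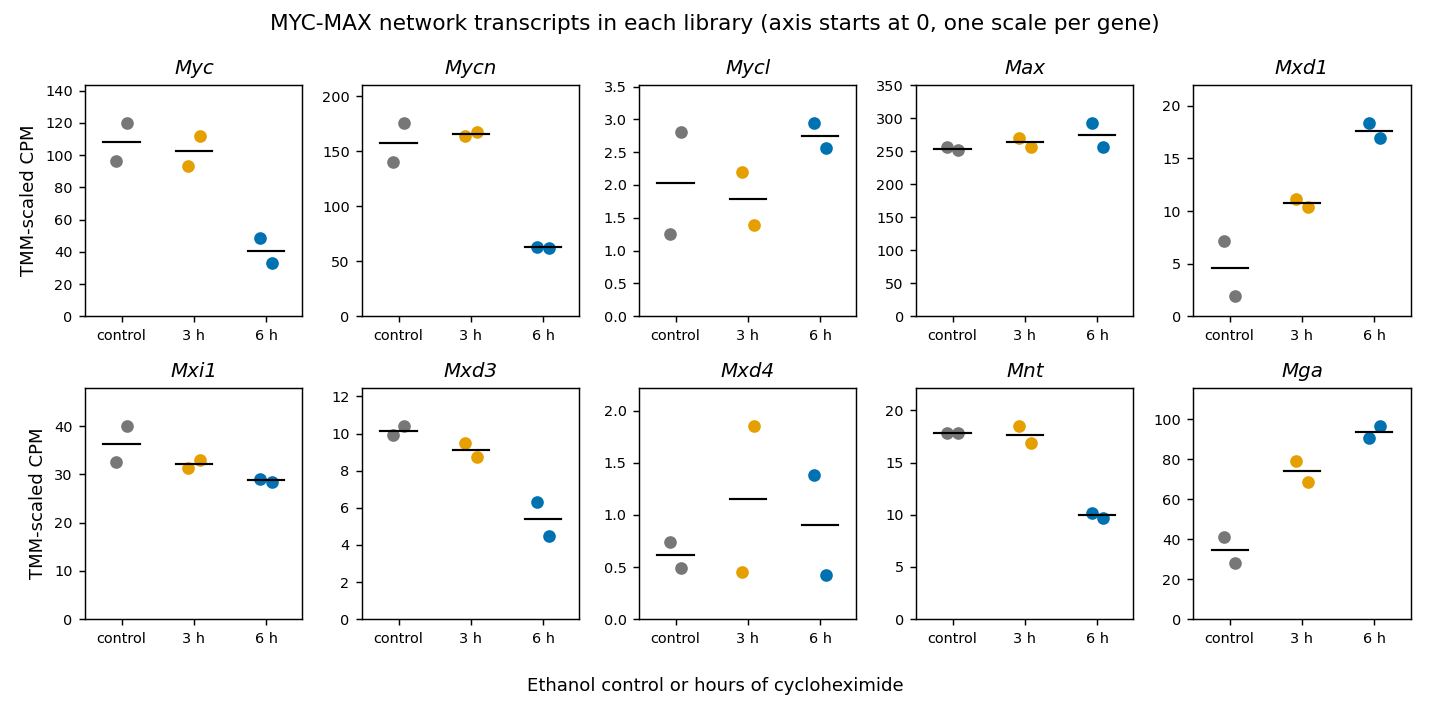
Level of each MYC-MAX network gene in TMM-scaled CPM (vertical axis, from 0, with its own scale for each gene) in the control, 3 h and 6 h libraries (horizontal axis). Points are single libraries and bars are means of 2. Myc and Mycn were lower in both 6 h libraries than in any other library (at most 48.7 and 63.4 CPM), whereas Mga was higher in all treated libraries (at least 68.6 CPM) than in control.

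Of the MYC genes themselves, Myc and Mycn fell at 6 h and were not called at 3 h. Myc lies at chr15:61985391-61990374 on the plus strand (GRCm38, GENCODE), and its transcripts were at 96.3 and 120 CPM in the control libraries, 93.0 and 112 after 3 h, and 48.7 and 32.9 after 6 h. The 3 h values lie within or just below the control range, and both 6 h values are far below all others. The log2 fold change against control was -0.07 ± 0.20 (SE of the fit) at 3 h with an adjusted p of 0.856 (edgeR). At 6 h it was -1.40 ± 0.21, a level 0.379 times that of control, with an adjusted p of 0.00269 (edgeR). The direct comparison of 6 h with 3 h gave -1.33 ± 0.21 and an adjusted p of 0.0212 (edgeR). That last call rested on few libraries: its adjusted p was 0.101 and 0.181 without either 3 h library and 0.170 without the second 6 h library. With a replicate block, Myc was also not called from 3 h to 6 h. The 6 h against control call of Myc held in all 16 alternatives run.

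Mycn, the family member best known from neural and embryonic tissue, lies at chr12:12936093-12941914 on the minus strand. Its transcripts were at 140 and 175 CPM in the control libraries, 164 and 167 after 3 h, and 63.4 and 62.4 after 6 h. The 3 h libraries lie inside the control range and the 6 h libraries are clearly below it. The log2 fold change was 0.07 ± 0.13 at 3 h (edgeR adjusted p = 0.783). At 6 h it was -1.33 ± 0.13, or 0.399 times the control level (edgeR adjusted p = 0.000509). From 3 h to 6 h Mycn fell by 1.40 ± 0.13 on the log2 scale (edgeR adjusted p = 0.00291), and without the second 6 h library that adjusted p was 0.0593. Mycn is the gene whose window carries the 3 E2F matches printed above.

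Myc and Mycn had similar profiles over the libraries. Myc made up 40.7% and 40.6% of the summed Myc and Mycn counts in the control libraries, 36.2% and 40.1% after 3 h, and 43.5% and 34.5% after 6 h. The 2 libraries at 6 h lie on either side of the control share, so no shift from one gene to the other was visible. Over the 6 libraries, the profiles of log2 CPM centred on the control mean differed by a root mean square of 0.20 between Myc and Mycn. Among 7334 compared genes with a mean of at least 10 CPM, Mycn ranked 7 in likeness to Myc, and Myc ranked 10 in likeness to Mycn. The genes closest to Myc were Tbc1d8 (0.14), Scrib (0.16) and Map1a (0.17), and those closest to Mycn were Scrib (0.09), Chac1 (0.12) and Tbc1d8 (0.15). The median difference over all compared genes was 0.81 from Myc and 0.74 from Mycn. Scrib, near the top for both, was at 38.7 and 51.4 CPM in the control libraries, 45.8 and 48.1 after 3 h, and 20.6 and 16.8 after 6 h. These distances describe 6 libraries under 1 scaling and carry no test.

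Mycl, the third MYC gene (chr4:122995652-123002485, plus strand), was scarce, with 17 to 89 counts per library. Its level was 1.26 and 2.81 CPM in the control libraries, 2.20 and 1.39 after 3 h, and 2.94 and 2.57 after 6 h. The control libraries alone span the 3 h values, and the 6 h values sit near the higher control. Against control the 6 h change was 0.48 ± 0.51 (edgeR adjusted p = 0.519), and its sign turned to -0.03 without the first control library.

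Max, the partner shared by every protein of the network, was not called in any comparison on the TMM scale. The gene (chr12:76937269-76962201, minus strand) was at 256 and 251 CPM in the control libraries, 270 and 257 after 3 h, and 292 and 257 after 6 h. The ranges of the 3 groups nearly touch or overlap. Its 6 h change was 0.11 ± 0.11 (edgeR adjusted p = 0.466), with a 95% interval from -0.13 to 0.36. Scaled by library size alone, Max was called higher at 6 h by 0.47 (edgeR adjusted p = 0.0106). That scaling moved the median of all tested genes from 0.04 to 0.40 at 6 h, so Max stayed close to the bulk of genes under both. It also raised the share of higher genes among all called genes from 50.8% to 88.2% at 6 h, from 73.4% to 95.8% at 3 h and from 27.8% to 56.5% from 3 h to 6 h.

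**Figure D2:**
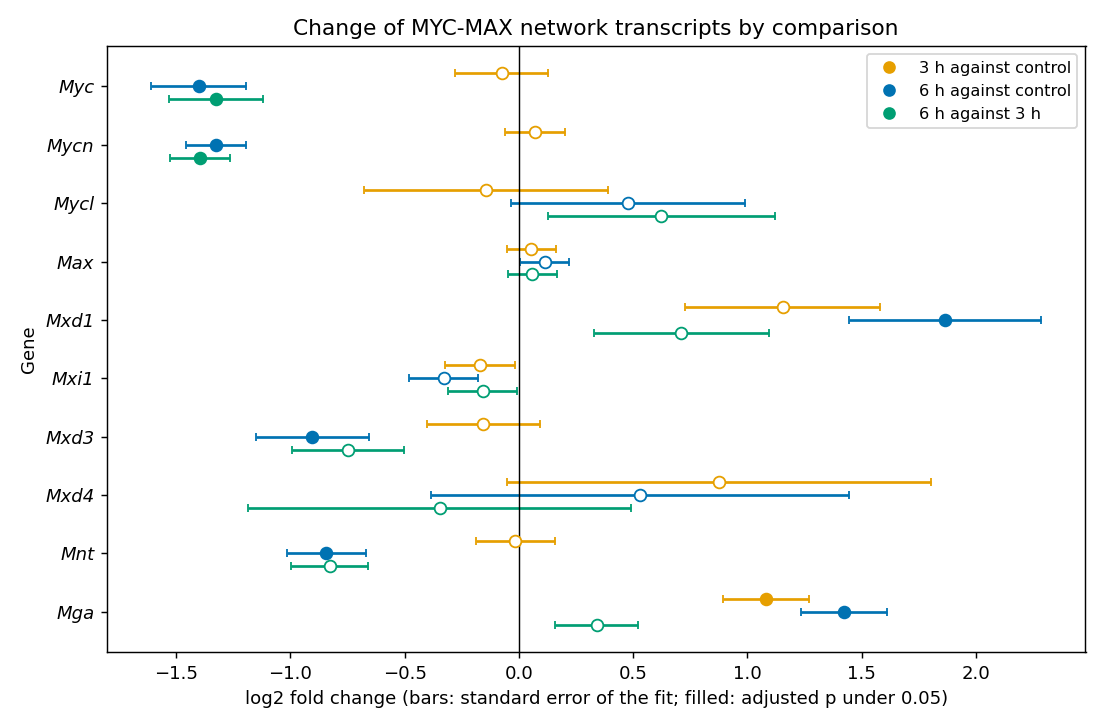
Log2 fold change of each member (horizontal axis) in the 3 comparisons, with bars of 1 standard error of the edgeR fit and filled points where the adjusted p was under 0.05. Myc and Mycn are filled at 6 h against control and at 6 h against 3 h, Mga is filled at 3 h and 6 h against control, and Max lies near 0 in all 3 comparisons on this TMM scale.

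The 4 MXD genes, which encode the MAX partners that oppose MYC, did not move together. Mxd1 (chr6:86647042-86669161, minus strand) encodes the repressor classically induced when cells stop dividing and differentiate. It was at 7.19 and 1.96 CPM in the control libraries, 11.2 and 10.3 after 3 h, and 18.3 and 16.9 after 6 h. The 3 groups do not overlap, and the control libraries are far apart, with 97 and 16 counts. At 3 h the log2 fold change was 1.15 ± 0.43 (edgeR adjusted p = 0.141). At 6 h Mxd1 rose by 1.87 ± 0.42, a 3.64-fold higher level (edgeR adjusted p = 0.0127). The size of both changes depends on the second control library: at 6 h the value was 3.17 without the first control and 1.30 without the second, and at 3 h 2.45 (then called) and 0.58. Without either 6 h library the 6 h adjusted p was 0.0589 and 0.0549.

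Mxd3 moved the opposite way. This gene (chr13:55325168-55329823, minus strand) encodes the family member known from proliferating cells in S phase. Its level was 9.93 and 10.4 CPM in the control libraries, 9.50 and 8.73 after 3 h, and 6.34 and 4.48 after 6 h. The control libraries are close together, and both 6 h libraries are below every other library. Its change was -0.16 ± 0.25 at 3 h (edgeR adjusted p = 0.743) and -0.90 ± 0.25 at 6 h (edgeR adjusted p = 0.0271). The 6 h call was lost with library size alone (-0.55, adjusted p = 0.119), without the second 6 h library (0.175), without the second control (0.0571) and in a fit of the 4 compared libraries (0.0507). Mxd3 shares 105 exonic bases with Prelid1 on the opposite strand, and whether counting used strand is not given in the sources used here. Prelid1 was itself lower at 6 h, by a log2 fold change of -0.55 ± 0.12 (edgeR adjusted p = 0.0102). That call was lost without either 6 h library and with library size alone (-0.19). If counting ignored strand, reads from the shared stretch could not be assigned to one gene or the other.

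Mxi1 and Mxd4 were not called in any comparison. Mxi1, also named Mad2 in older work, lies at chr19:53310518-53375810 on the plus strand and was at 32.6 and 40.0 CPM in the control libraries, 31.3 and 32.9 after 3 h, and 29.0 and 28.5 after 6 h. The 6 h libraries were the lowest of the 6. The log2 fold change at 6 h was -0.33 ± 0.15 with a 95% interval from -0.68 to 0.02 (edgeR adjusted p = 0.136), and with library size alone it was 0.03. Mxd4 (chr5:34173883-34187720, minus strand), the family member associated with differentiated tissue, had 4 to 42 counts per library and lay between 0.422 and 1.85 CPM. Its replicates at 3 h differed more, 0.452 against 1.85 CPM, than any groups did, and the 6 h value of 0.53 ± 0.92 (edgeR adjusted p = 0.700) turned to -0.56 without the first 6 h library. Exons of Mxi1 and Mxd4 overlap genes on the opposite strand by 194 and 514 bases, and those genes (Gm10197 and Gm42846) have no row in the tables.

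Mnt encodes a widely expressed MAX partner regarded as the standing antagonist of MYC. The gene (chr11:74830920-74845725, plus strand) was at 17.9 and 17.8 CPM in the control libraries, 18.5 and 16.9 after 3 h, and 10.2 and 9.70 after 6 h. The first 4 of these libraries form 1 tight group and both 6 h libraries are well below it. Its change was -0.01 ± 0.17 at 3 h (edgeR adjusted p = 0.970). At 6 h it was -0.84 ± 0.17, or 0.558 times the control level (edgeR adjusted p = 0.00874). From 3 h to 6 h the value was -0.83 ± 0.17 with an adjusted p of 0.0523 (edgeR), which fell under 0.05 in 6 of 16 alternatives, limma-voom and DESeq2 among them. The 6 h call against control was lost without the second 6 h library (adjusted p = 0.0693) and with library size alone (-0.49, adjusted p = 0.0580). Mnt carries the E-box printed in its window, 123 bases before the start site.

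Mga was the 1 member called at both times. This large gene (chr2:119897228-119969581, plus strand) encodes the scaffold through which MAX joins PRC1.6. Its level was 41.3 and 28.0 CPM in the control libraries, 79.3 and 68.6 after 3 h, and 90.9 and 96.5 after 6 h. All 4 treated libraries are above both controls, and the 6 h libraries are above the 3 h ones. Mga rose by 1.08 ± 0.19 at 3 h, a 2.12-fold higher level (edgeR adjusted p = 0.0192), and by 1.42 ± 0.19 at 6 h, 2.68-fold (edgeR adjusted p = 0.00165). The step from 3 h to 6 h was 0.34 ± 0.18 (edgeR adjusted p = 0.361). The 6 h call held in all 16 alternatives, whereas the 3 h call was lost without either 3 h library (adjusted p = 0.121 and 0.0777) and in a fit of the 4 compared libraries (0.0517).

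The ratio of a member's counts to those of Max within the same library does not depend on how libraries are scaled. On the log2 scale, the ratio of Myc to Max was -1.24 ± 0.24 (SD, n = 2) in control, -1.37 ± 0.24 at 3 h and -2.77 ± 0.27 at 6 h, a difference of -1.53 at 6 h. The ratio of Mycn to Max went from -0.69 ± 0.24 to -0.67 ± 0.07 and -2.12 ± 0.12, a difference of -1.43. For Mga the ratio went the other way, from -2.90 ± 0.38 to -1.84 ± 0.10 and -1.55 ± 0.19. Thus the balance of these messages relative to Max shifted in opposite directions for the MYC genes and Mga, with every 6 h library outside the control range. Mnt to Max changed by -0.95 and Mxd3 to Max by -1.04 at 6 h, while Mxd1 to Max changed by 2.12 and Mxi1 to Max by -0.44. No test was run on these ratios, since 2 libraries against 2 are too few for an exact one.

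**Figure D3:**
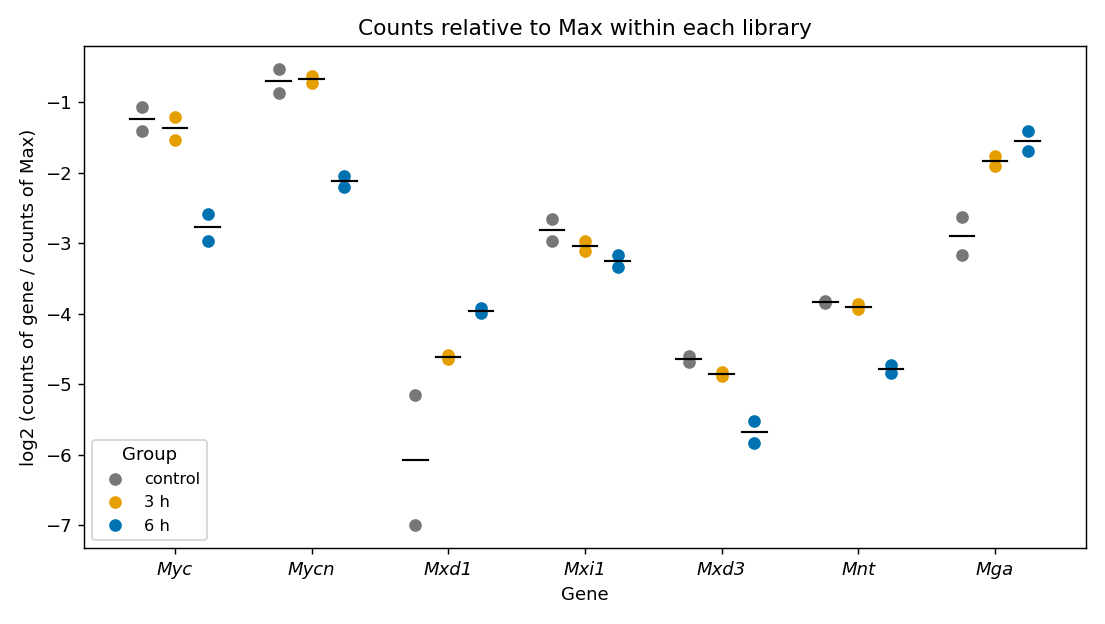
Log2 ratio of each member's counts to the counts of Max (vertical axis) within each library, for 7 members (the scarcest, Mycl and Mxd4, are left out). Bars are means of 2 libraries. The ratios of Myc and Mycn drop at 6 h by 1.53 and 1.43, while those of Mxd1 and Mga are higher at 3 h and 6 h.

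Genes activated by MYC were described from a list of 58, mostly nucleolar and ribosome assembly factors, nucleotide and polyamine enzymes and mitochondrial proteins. At 3 h, 3 of 58 were called, all lower (Hspe1, Npm1 and Rrp9), beside 4.90% of all tested genes, 1.30% lower. The list median at 3 h was -0.19 beside 0.02 for all genes. At 6 h, 27 were called lower and 1 higher (Supv3l1, a mitochondrial RNA helicase, 0.51 ± 0.15, edgeR adjusted p = 0.0382), and the median was -0.40 beside 0.04. Among all tested genes, 14.3% were called lower and 14.8% higher at 6 h. Values were negative for 47 of the 58 at both times on the TMM scale. With library size alone they were negative for 23 at 3 h and 33 at 6 h. The 3 h list median was then 0.04 beside 0.25 for all genes. Between 3 h and 6 h edgeR called 0 of the 58 (21 had an unadjusted p under 0.05), limma-voom 6 and DESeq2 8, and 43 had negative values. With library size alone the 6 h counts were 9 lower and 10 higher, with a list median of -0.04 beside 0.40 for all genes, so the list lay below the bulk of genes under both scalings while the balance of its calls differed. Without the first 6 h library 12 were called and without the second 8, all lower. Supv3l1 lost its call without the first control, either 3 h library or either 6 h library (adjusted p from 0.0661 to 0.220).

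Of the named members of that list, Tfb2m, a mitochondrial transcription factor, was at 21.4 and 27.6 CPM in the control libraries, 13.7 and 16.0 after 3 h, and 7.39 and 7.70 after 6 h. All 3 groups are apart, in falling order. Its log2 fold change was -0.72 ± 0.20 at 3 h (edgeR adjusted p = 0.0727) and -1.69 ± 0.20 at 6 h (edgeR adjusted p = 0.00106). Hspe1, the mitochondrial co-chaperonin, was at 1593 and 1709 CPM in the control libraries, 1179 and 1224 after 3 h, and 997 and 879 after 6 h, with a change of -0.46 ± 0.10 at 3 h (edgeR adjusted p = 0.0411) and -0.82 ± 0.10 at 6 h (edgeR adjusted p = 0.00128). Npm1, the abundant nucleolar protein nucleophosmin, changed by -0.40 ± 0.09 at 3 h (edgeR adjusted p = 0.0379) and -0.67 ± 0.09 at 6 h (edgeR adjusted p = 0.00153). The 3 h calls of Hspe1, Npm1 and Rrp9 were weak: with any 1 library other than the first control left out, none of the list was called at 3 h (adjusted p of the 3 genes from 0.0552 to 0.233), and with library size alone they were at -0.23, -0.18 and -0.27 without a call. The E-box letters occur in the windows of 16 of the 52 genes of this list that have one (30.8%), beside 8.09% of all 27025 genes with a window. The list was chosen for genes known to be activated by MYC, whose site is the E-box, so that share is not independent of the choice.

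Germ cell genes that MGA, MAX and PRC1.6 are known to repress in embryonic stem cells formed a list of 20, of which 19 were tested. At 3 h 0 were called by edgeR (2 had an unadjusted p under 0.05), DESeq2 or limma-voom, and at 6 h 2 of 19 were called, both higher. That share is below the 14.8% of all tested genes called higher at 6 h. With library size alone 4 were called at 6 h, all higher, and without either 6 h library 1. Values were positive for 15 of 19 at 6 h, with a median of 0.52 beside 0.04 for all genes, and for 17 of 19 from 3 h to 6 h, with a median of 0.66 beside 0.01. In that last comparison edgeR and limma-voom called 0 (3 had an unadjusted p under 0.05 in edgeR) and DESeq2 1. With no filter on low counts, the 6 h medians were 0.55 for this list and 0.16 for all genes. Among scarce marker lists, primitive endoderm had 6 of 6 positive at 6 h (median 1.12), mesoderm 1 of 4 (-0.42) and fibroblast 0 of 2 (-0.68). The more abundant trophoblast and neural lists had 0 of 3 (-1.12) and 1 of 4 (-0.82). In the primitive endoderm list, Pdgfra and Foxa2 had at most 6 counts in a control library and passed the filter on low counts only through treated libraries. The part of low abundance in the shift of the germ cell list was not tested. Smc1b, a meiotic cohesin subunit, was at 3.93 and 3.05 CPM in the control libraries, 7.69 and 5.03 after 3 h, and 11.6 and 16.9 after 6 h. Its treated libraries are all above control, and it rose by 2.01 ± 0.32 at 6 h (edgeR adjusted p = 0.00366). Stag3, another meiotic cohesin subunit, was at 62.1 and 112 CPM in the control libraries, 89.2 and 126 after 3 h, and 162 and 175 after 6 h. The control and 3 h ranges of Stag3 overlap and the 6 h libraries are above them. Its change at 6 h was 0.96 ± 0.26 (edgeR adjusted p = 0.0255), which lost the call without the first control or either 6 h library (adjusted p from 0.0582 to 0.111).

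Most other genes of the germ cell list were scarce, and Ddx4 and Mael were not called. Ddx4, the germ cell RNA helicase also called Vasa, was at 6.30 and 8.55 CPM in control and 9.54 and 8.43 at 6 h, and Mael at 6.74 and 13.7 in control and 8.28 and 7.70 at 6 h. The groups of both overlap. E-box letters occur in the windows of 11 of the 18 genes of this list that have one (61.1%). The list was written from genes known to be bound by MAX complexes, so that share is not independent of how it was chosen. Stag3 holds the E-box printed in its window, 170 bases before the start, while the Smc1b window holds no CACGTG.

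**Figure D4:**
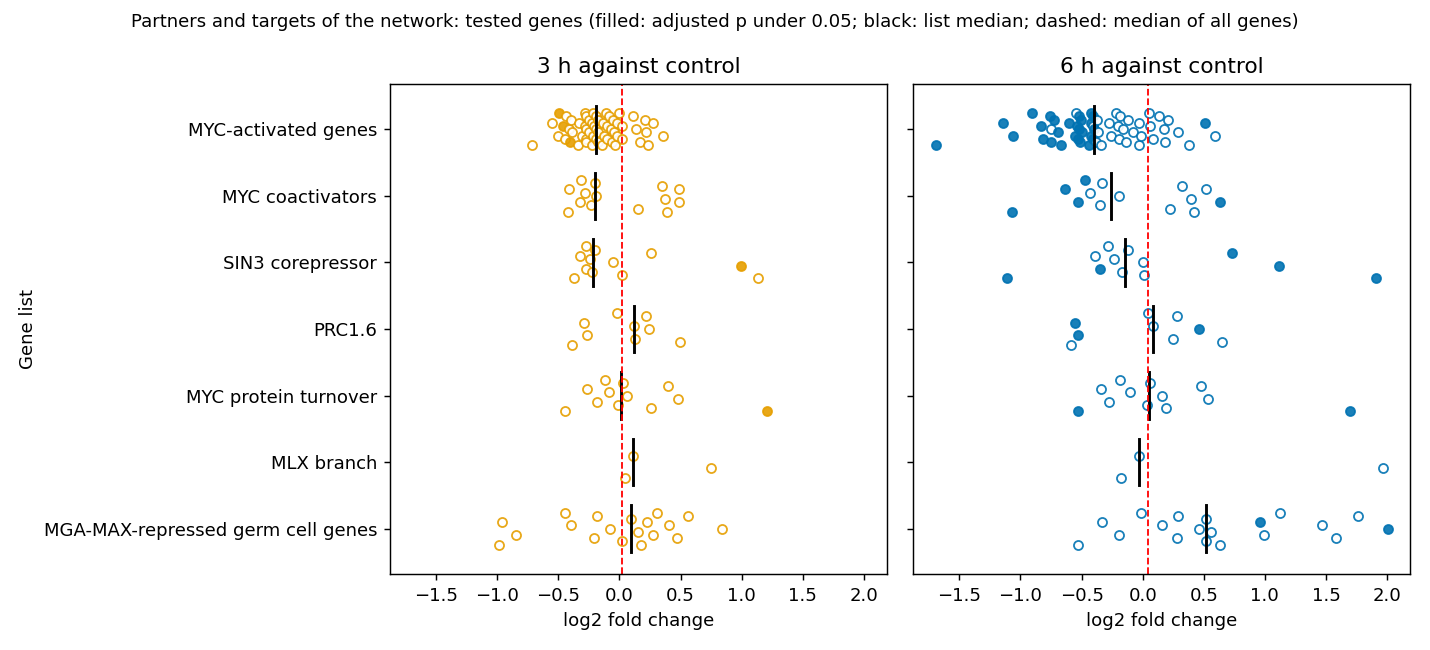
Log2 fold change (horizontal axis) of every tested gene in 7 lists of network partners and targets, at 3 h and 6 h against control, with filled points where the edgeR adjusted p was under 0.05. Black bars are list medians and the dashed line is the median of all tested genes. The MYC-activated list lies to the left of the dashed line at 6 h (median -0.40) and the germ cell list to the right (median 0.52).

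Calls among the other subunits of PRC1.6 were near the share of all genes. Of 9 tested, 0 were called at 3 h by edgeR or limma-voom and 1 by DESeq2 (2 had an unadjusted p under 0.05 in edgeR). At 6 h 3 of 9 were called, beside 29.0% of all tested genes: Rybp was higher and Cbx3 and Rnf2 were lower, with a list median of 0.08. Scaled by library size alone, 4 were called higher and 0 lower, with a median of 0.44, and without either 6 h library 1 was called. Rybp, a stimulator of the complex's ubiquitin ligase activity, was at 212 and 220 CPM in control and 289 and 305 at 6 h, a change of 0.46 ± 0.10 (edgeR adjusted p = 0.0125). Rnf2, the RING1B ligase, was at 215 and 218 CPM in control and 144 and 156 at 6 h, a change of -0.53 ± 0.11 (edgeR adjusted p = 0.00950). The heterochromatin protein gene Cbx3 changed by -0.55 ± 0.11 (edgeR adjusted p = 0.00721). Neither Rnf2 nor Cbx3 was called with library size alone (-0.17 and -0.19). Without the first 6 h library the calls of Rybp and Rnf2 were lost (adjusted p = 0.0508 and 0.0724), and without the second those of Rybp and Cbx3 (0.0906 and 0.0549). Pcgf6, the subunit that defines the complex, was at 66.6 and 58.3 CPM in control and 76.2 and 75.8 at 6 h and was not called (edgeR adjusted p = 0.129).

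The SIN3 corepressor, which MXD proteins and MNT recruit, held genes called in both directions. Of 12 tested genes, 1 was called at 3 h, higher, and at 6 h 3 were called higher (Arid4a, Arid4b and Sap18) and 2 lower (Sin3a and Rbbp7), with a median of -0.15. These 5 of 12 at 6 h stand beside 29.0% of all tested genes, and the 1 of 12 at 3 h beside 4.90%. Scaled by library size alone, 4 were called higher and 1 lower, with a median of 0.21. Without the second control 3 were called, and without the first or the second 6 h library 3 and 2. Sin3a, the scaffold that MXD proteins bind, was at 78.4 and 82.1 CPM in the control libraries, 66.7 and 66.0 after 3 h, and 44.1 and 30.2 after 6 h. Both 6 h libraries are far below the rest, and the change was -1.11 ± 0.18 (edgeR adjusted p = 0.00387). Arid4b, a chromatin-binding subunit, was at 28.5 and 26.0 CPM in the control libraries, 60.2 and 48.5 after 3 h, and 52.2 and 66.3 after 6 h. It rose by 0.99 ± 0.18 at 3 h (edgeR adjusted p = 0.0214) and 1.12 ± 0.18 at 6 h (edgeR adjusted p = 0.00351). Its relative Arid4a changed by 1.91 ± 0.41 at 6 h (edgeR adjusted p = 0.0101), with control libraries at 20.5 and 8.43 CPM. Arid4a lost its call without the second 6 h library (adjusted p = 0.0644), and the 3 h call of Arid4b was lost without the second control (0.0547) or either 3 h library (0.135 and 0.0626).

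Among 14 MYC coactivators, 0 were called at 3 h by edgeR or limma-voom and 4 by DESeq2 (7 had an unadjusted p under 0.05 in edgeR). At 6 h 5 of 14 were called, beside 29.0% of all tested genes, of which Ccnt1 was higher and Hcfc1, Kat2a, Ruvbl1 and Wdr5 lower. The list median was -0.26 at 6 h. With library size alone 5 were called higher and 1 lower, with a median of 0.10 beside 0.40 for all genes. The count was 8 without the first control, 3 without the first 6 h library and 0 without the second. Wdr5, which anchors MYC to chromatin, was at 314 and 310 CPM in the control libraries, 238 and 264 after 3 h, and 235 and 215 after 6 h, a 6 h change of -0.47 ± 0.11 (edgeR adjusted p = 0.0136). Hcfc1, the host cell factor that MYC also contacts, changed by -1.06 ± 0.23 (edgeR adjusted p = 0.0105), with control libraries at 610 and 892 CPM and 6 h libraries at 390 and 328. Ruvbl1, an ATPase of the TIP60 complex, changed by -0.64 ± 0.12 (edgeR adjusted p = 0.00706). With library size alone Wdr5 and Ruvbl1 were not called (-0.11 and -0.28), and without the second 6 h library Ruvbl1, Hcfc1 and Wdr5 were not (adjusted p = 0.0612, 0.0761 and 0.106).

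Of 12 genes for the turnover of MYC protein, 1 was called at 3 h and 2 at 6 h, beside 4.90% and 29.0% of all tested genes. At 6 h 3 were called with library size alone, all higher. The 6 h count was 4 without the first control and 1 without any 1 of the other libraries. Ppp2r5a, a regulatory subunit of phosphatase PP2A known to act on MYC phosphorylation, was at 7.85 and 6.35 CPM in the control libraries, 17.4 and 15.8 after 3 h, and 20.1 and 26.4 after 6 h. All treated libraries are above control, with a change of 1.21 ± 0.22 at 3 h (edgeR adjusted p = 0.0224) and 1.69 ± 0.22 at 6 h (edgeR adjusted p = 0.00147). Its 3 h call was lost without the second control (adjusted p = 0.0547), without either 3 h library (0.123 and 0.0923) and with limma-voom (0.0554). Gsk3a, a kinase that marks MYC for degradation, changed by -0.53 ± 0.17 at 6 h (edgeR adjusted p = 0.0463), a call lost with library size alone (-0.17) and without any 1 library other than the first control (adjusted p from 0.0551 to 0.219). In the MLX branch, whose factors bind related E-boxes without MAX, 0 of 3 genes were called at 3 h or 6 h by edgeR, DESeq2 or limma-voom (0 and 1 had an unadjusted p under 0.05 in edgeR). At 6 h 1 was called higher with library size alone, Mlxipl (2.32, adjusted p = 0.0498). On the TMM scale Mlxipl, the glucose-responsive factor ChREBP, was at 1.97 ± 0.78 at 6 h (edgeR adjusted p = 0.0920) on 3 to 54 counts per library. With 4 and 3 counts in the control libraries, it passed the filter on low counts only through treated libraries. The filter of 1 CPM in 2 libraries kept 2 of the 3 genes and left Mlxipl untested.

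**Figure D5:**
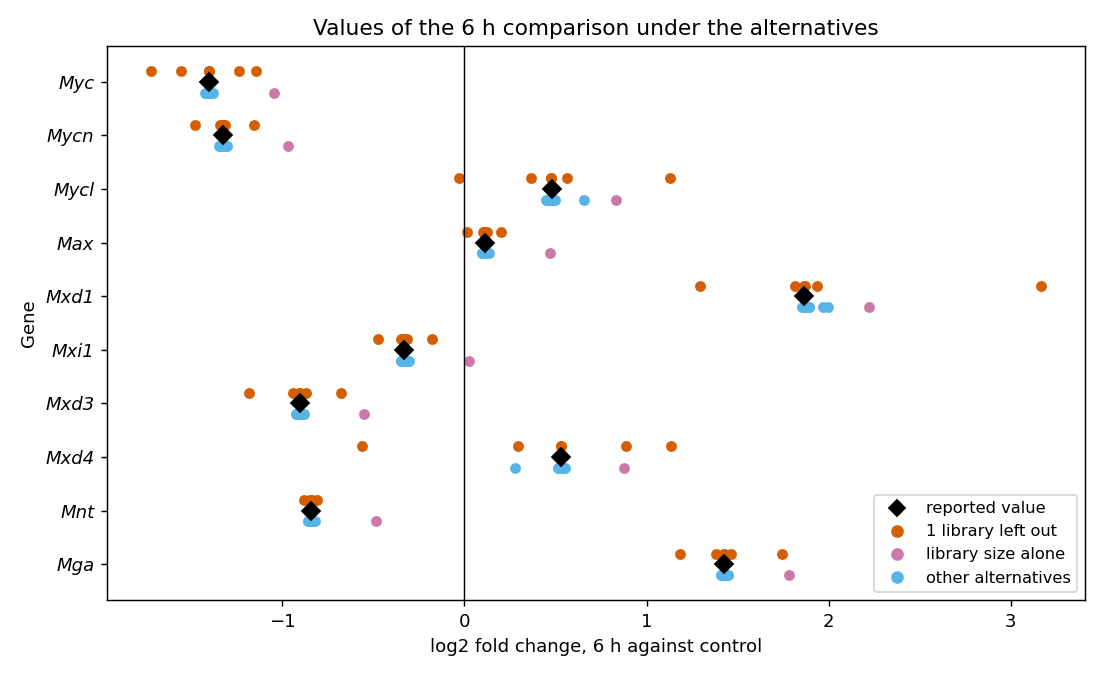
Log2 fold change of each member at 6 h against control (horizontal axis) as reported (diamonds) and under each alternative (points, with the fits that leave out 1 library and the scaling by library size alone in their own colours). Myc, Mycn and Mga keep their side of 0 and their call in all 16 alternatives, while Mxd1 spans 1.30 to 3.17 and Mxd4 crosses 0.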

How the data were processed

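RNA abundance was measured in 6 libraries. The values the authors deposited are raw whole-number read counts for each gene, in 1 file of 1 column per library. The build is mm10, per the submitters' processing notes; the aligner, counting program, annotation, use of strand and collapsing of molecular identifiers are not given in the sources used here. The series title calls the data bulk while its design text names single-cell sequencing, and each file was analysed as 1 bulk library. One row that is not a mouse gene was left out, with at most 2 counts in a library.

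Counts were analysed in R 4.3.3 with edgeR 4.0.16. Genes were kept by filterByExpr (minimum count 10, minimum total 15), which left 12755 of 17484. Libraries were scaled by TMM, a mean per group was fitted over all 6 libraries (3 residual degrees of freedom), and the quasi-likelihood F test was adjusted by Benjamini-Hochberg over all tested genes in each comparison. Standard errors were derived from the F statistic. The steps were tested on simulated data. Alternatives were 3 other scalings, 2 other filters, DESeq2 1.42.0, limma-voom (limma 3.58.1), a replicate block, the 4 compared libraries alone, no mitochondrial genes and leaving out each library.

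The members and the gene lists were chosen with earlier results of these data known. Named genes were all members and, per list, up to 3 called genes with the smallest p at 6 h against control (with none called, the 1 with the smallest p), plus the 3 genes most like Myc and Mycn. Outside that rule, Ddx4, Mael, Pcgf6, Prelid1, Pou5f1, Nanog, Sox2, Sox1, Pax6, Map2, Pdgfra and Foxa2 were named after their values were seen. So were called genes listed by name only (such as Supv3l1 and Rrp9). The counts of list genes under the alternatives were also added after the data were seen. Loci are from GENCODE M21 (GRCm38, the same assembly as mm10) and promoter windows from RefSeq (GRCm38.p6).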

Additional observations from a re-analysis of the deposited data

Results flagged for a closer look

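The change of Myc from control was -0.07 ± 0.20 (log2, SE) at 3 h and -1.40 ± 0.21 at 6 h. Both effects were measured against the same control libraries, and the direct test of their difference, 6 h against 3 h, gave -1.33 (edgeR adjusted p = 0.0212), with both 6 h libraries below both 3 h libraries. That call was lost without either 3 h library, without the second 6 h library and with a replicate block. With 1 library left out, the value ranged from -1.64 to -1.07.

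The change of Mycn was 0.07 ± 0.13 at 3 h and -1.33 ± 0.13 at 6 h. The direct test of 6 h against 3 h gave -1.40 (edgeR adjusted p = 0.00291), again with both 6 h libraries below both 3 h libraries, and was lost without the second 6 h library (adjusted p = 0.0593). Among the 10 members, the difference between the times passed the threshold for these 2 genes.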

How the results depend on the processing

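The number of genes called at 3 h was 625; it was 1373 with library size alone, 1812 with no filter, 1447 with DESeq2, 218 with the 4 compared libraries, and 108 to 1033 when 1 library was left out. At 6 h the count of 3703 ranged from 1312 to 3578 when 1 library was left out. From 3 h to 6 h the count of 209 was 1058 with no filter, 688 with DESeq2, 508 with limma-voom, 563 with the 4 compared libraries, and 14 to 595 when 1 library was left out. Members called at 3 h were 2 with no filter, 0 with the 4 compared libraries and 0 to 2 when 1 library was left out. At 6 h they were 3 to 6 when 1 library was left out, and from 3 h to 6 h 0 to 3. Deviations of same-numbered libraries from the group means correlated by 0.23 between control and 3 h, -0.05 between control and 6 h and 0.01 between 3 h and 6 h. With 2 libraries per group, each pair of groups gives a single correlation, so whether the numbers pair the libraries cannot be decided. With the replicate block, 126 genes and 1 member (Mycn) were called from 3 h to 6 h, and Myc had an adjusted p of 0.0506 there.

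Signs turned only for values that were not called in the comparison concerned, or, for the ratios, not tested. With library size alone, the 3 h values became 0.15 for Myc, 0.080 for Mycl, 0.057 for Mxi1, 0.071 for Mxd3 and 0.21 for Mnt, and the 6 h value of Mxi1 became 0.027. With Mga in place of Max, the 6 h ratio of Mycl was -0.92 and that of Mxd4 -1.12, and the 3 h ratios of Mycn and Mxd4 were -1.04 and -0.51. With 1 library left out, the 3 h values ranged from -0.23 to 0.089 for Myc, -0.086 to 0.24 for Mycn, -0.66 to 0.50 for Mycl, -0.47 to 1.54 for Mxd4 and -0.084 to 0.049 for Mnt. The 6 h values ranged from -0.031 to 1.13 for Mycl and -0.56 to 1.14 for Mxd4, and the values from 3 h to 6 h from -1.44 to 1.00 for Mxd4 and -0.040 to 0.15 for Max. The causes were not tested. Depth limits the scarcest members, with as few as 4 counts of Mxd4, 16 of Mxd1 and 17 of Mycl in a library. Leaving out 1 library leaves a group with 1, whose spread is then assumed to match that of the other groups.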
